A study of Mus musculus with 91 samples.

Results

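MicroRNA levels in the extraembryonic ectoderm (Exe) of mouse embryos at E7.5 were compared between *Dnmt1*-KO and *Dnmt3a/3b*-DKO. The comparison took every mature miRNA of the count table in the libraries labelled as E7.5 Exe of these genotypes, 4 of each, which are 8 of the 91 libraries of the series. Of 1504 mature miRNAs in the table, 597 had enough counts to be tested. The study sequenced small RNA from dissected Exe and epiblast (Epi) at E6.5 and E7.5, and from haploid embryonic stem cells and the embryos made with them, to ask what loss of DNA methylation does to the miRNAs of the early embryo.

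Both mutants, like the control and *Dnmt*-null embryos that serve here as reference levels, came from F1 females (B6D2F1 in the study's methods) mated with C57BL/6 males, which carried an *Oct4-EGFP* reporter transgene. They were made by injecting zygotes with a base editor and guides that write stop codons into *Dnmt1*, or into both *Dnmt3a* and *Dnmt3b*, and *Dnmt*-null embryos received the guides for all of these genes. The embryos were therefore edited founders and not an established line. The sources used here do not say whether a library held a single embryo or a pool, so the p-values measure the spread between these libraries. Small RNA counts hold no *Dnmt* mRNA, and the loss of the targeted genes could not be read from them.

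DNMT1 copies methylation marks onto the new strand after replication, whereas DNMT3A and DNMT3B set marks on unmethylated DNA. Exe is the trophoblast tissue that gives rise to placental cells. At imprinted genes, a methylated control region on the allele from the father or the mother decides which allele is transcribed, and many miRNAs lie inside such genes. Known examples are miR-483 in an intron of *Igf2*, miR-296 and miR-298 next to *Gnas*, miR-335 in *Mest*, and the large group of the *Dlk1-Dio3* locus that is transcribed from the maternal chromosome with *Meg3*, *Rian* and *Mirg*.

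The libraries held 675619 to 1504155 counts in *Dnmt1*-KO and 1310824 to 2394918 in *Dnmt3a/3b*-DKO. *Dnmt1*-KO libraries 1 and 2 stood apart from the other 6 on the first principal component, and 450 and 459 miRNAs had a count in them, against 569 to 724 in the other 6. The tissue carried the miRNAs of Exe: the miRNAs in the *Sfmbt2* gene, a trophoblast cluster, took 9.12% to 14.8% of the counts in *Dnmt1*-KO and 11.7% to 14.9% in *Dnmt3a/3b*-DKO, against 0.757% to 1.75% in Epi of the same genotypes. The epiblast miRNAs of the miR-302 cluster were not absent, at 1.15% to 4.08% in the 8 Exe libraries, against 15.3% to 22.5% in Epi. Among the 597 entries, 35 sets (71 entries) had identical counts in all 16 E7.5 Exe libraries, and 12 of these sets hold sequences that are antisense to each other over at least 14 bases, so their members cannot be told apart.

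The sequences below are those of the miRNAs that differed between the mutants or that help to read a difference, 5′ to 3′ and with the seed (bases 2 to 8, which select targets) in capitals. They come from RefSeq on GRCm38.p6, which gave a mature sequence for 1275 of the 1504 miRNAs. The first set are miRNAs of imprinted genes outside *Dlk1-Dio3*.
miR-483-5p: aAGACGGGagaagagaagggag
miR-483-3p: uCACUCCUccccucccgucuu
miR-298-5p: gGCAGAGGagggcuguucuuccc
miR-296-3p: gAGGGUUGgguggaggcucucc

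The next set shows that miR-30c-5p shares its seed with miR-30a-5p and miR-30e-5p and differs from them in the second part of the molecule, and that miR-17-5p, miR-20a-5p and miR-93-5p share another seed.
miR-30c-5p: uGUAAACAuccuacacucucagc
miR-30e-5p: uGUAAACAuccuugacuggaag
miR-30a-5p: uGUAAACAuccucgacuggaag
miR-17-5p: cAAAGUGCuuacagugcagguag
miR-20a-5p: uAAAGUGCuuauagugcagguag
miR-93-5p: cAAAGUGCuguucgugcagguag

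The last set holds miRNAs of *Dlk1-Dio3* and miR-101a-3p.
miR-673-5p: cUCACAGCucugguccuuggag
miR-770-5p: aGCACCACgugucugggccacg
miR-127-3p: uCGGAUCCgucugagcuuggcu
miR-540-3p: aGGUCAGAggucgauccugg
miR-541-5p: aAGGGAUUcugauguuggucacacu
miR-101a-3p: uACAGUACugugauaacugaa

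Few miRNAs separated the mutants. Of 597 tested, 3 were higher in *Dnmt1*-KO (0.503%) and 7 were lower (1.17%) at a Benjamini-Hochberg adjusted p under 0.05 in edgeR's quasi-likelihood test over the 16 E7.5 Exe libraries of the 4 genotypes. The higher ones were miR-298-5p, miR-673-5p and miR-5099. The lower ones were miR-483-5p, miR-30c-5p, miR-101a-3p and 4 entries of miR-486a and miR-486b that count nearly the same reads. With the thresholds the study used, a log2 fold change beyond 0.5 either way and an unadjusted p under 0.05, 32 were higher (5.36%) and 31 lower (5.19%). In 20 miRNAs all 4 *Dnmt1*-KO libraries lay above all 4 *Dnmt3a/3b*-DKO libraries (3.35% of those tested), and in 25 they lay below (4.19%). The calls that remained in each of the 16 alternative fits were miR-483-5p, miR-298-5p and miR-30c-5p.

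**Figure D1:**
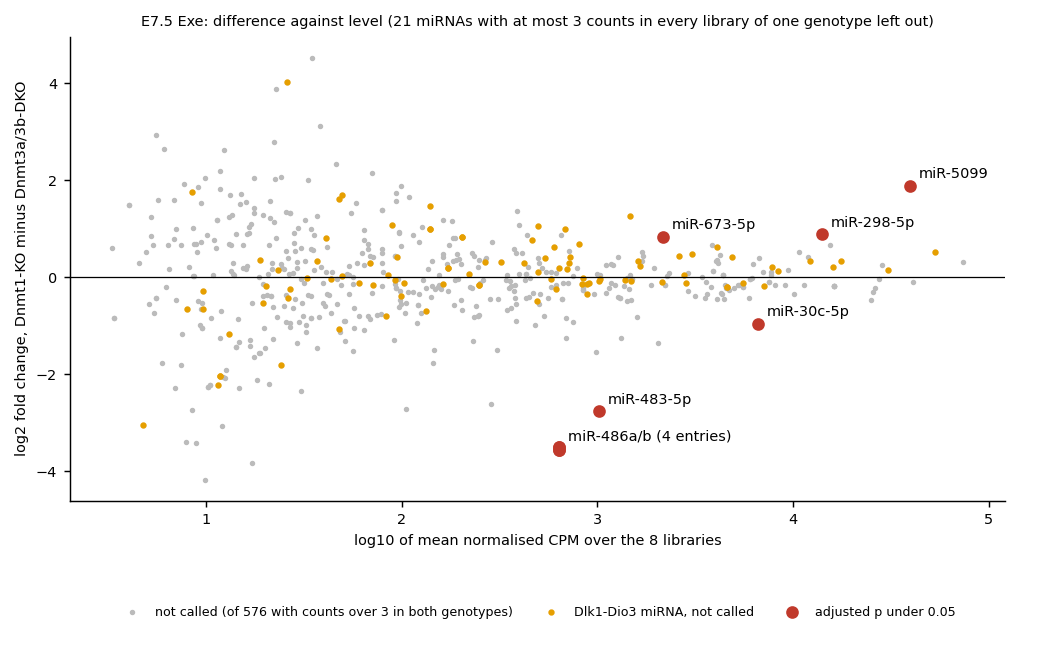
The log2 fold change (Dnmt1-KO minus Dnmt3a/3b-DKO) of each of 576 miRNAs is plotted against the log10 of its mean normalised CPM over the 8 libraries. Red points passed the adjusted p, orange points are Dlk1-Dio3 miRNAs that did not, and 21 miRNAs are left out because 1 genotype had no library above 3 counts. Of the miRNAs shown, 3 red points lie above 0.

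The largest difference that held was that of miR-483-5p, encoded at chr7:142654924-142654996 (minus strand, GRCm38) in an intron of *Igf2*, the growth factor gene expressed from the paternal allele. Levels are given as normalised CPM, counts scaled to library size and edgeR's TMM factors. The *Dnmt1*-KO libraries 1 to 4 held 410.9, 295.1, 221 and 119 normalised CPM of miR-483-5p, and the *Dnmt3a/3b*-DKO libraries 1949, 2004, 1566 and 1589. The groups were far apart, and the highest *Dnmt1*-KO library stood below the lowest *Dnmt3a/3b*-DKO library. The log2 fold change of miR-483-5p was -2.77 (SE 0.38, edgeR adjusted p 4.64e-04). Its mean was 2150 ± 282 (SD, n = 4) in controls and 132 ± 76.5 in *Dnmt*-null embryos, so *Dnmt3a/3b*-DKO stood near the former and *Dnmt1*-KO near the latter.

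The other arm of the hairpin, miR-483-3p, was at 1119, 579, 195.7 and 111 normalised CPM in *Dnmt1*-KO and at 1594, 1355, 1716 and 1201 in *Dnmt3a/3b*-DKO. Its groups did not overlap either, but its *Dnmt1*-KO libraries spread widely, with libraries 1 and 2 the highest, and the difference of -1.55 (SE 0.57) did not pass (adjusted p 0.232). The third measured miRNA of this imprinted domain, miR-675-3p, is cut from *H19*, the maternally expressed neighbour of *Igf2*. It was at 0, 0, 107 and 78 normalised CPM in *Dnmt1*-KO and at 20.1, 18.1, 45.8 and 17.7 in *Dnmt3a/3b*-DKO, and its groups overlapped.

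The miRNAs next to *Gnas* lay on the other side. The hairpin of miR-298 is at chr2:174267504-174267585 and that of miR-296 at chr2:174267047-174267125, both on the minus strand, and no gene of GENCODE other than the miRNA genes overlaps them. The *Dnmt1*-KO libraries held 19911, 18563, 17158 and 16812 normalised CPM of miR-298-5p, and the *Dnmt3a/3b*-DKO libraries 10408, 9798, 9069 and 10004. Replicates were close within each genotype, and the levels in *Dnmt1*-KO were all well above those in *Dnmt3a/3b*-DKO. The log2 fold change was 0.88 (SE 0.13, edgeR adjusted p 6.81e-04). The control mean of miR-298-5p, 13286 ± 1579 (SD, n = 4), lay between the mutants.

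The other products of these hairpins gave positive estimates that did not pass. For miR-296-3p the libraries held 1026, 647, 752 and 958 normalised CPM in *Dnmt1*-KO, and those of *Dnmt3a/3b*-DKO held 497.2, 486.5, 268 and 602, without overlap (0.87, SE 0.27, adjusted p 0.140; DESeq2 gave an adjusted p of 0.0287). The estimates of miR-298-3p and miR-296-5p were 1.89 (SE 0.63, adjusted p 0.176) and 1.33 (SE 0.69, adjusted p 0.484). From *Mest*, a paternally expressed gene, miR-335-3p was at 10763, 13249, 26128 and 25792 normalised CPM in *Dnmt1*-KO and at 10144, 11135, 9914 and 16800 in *Dnmt3a/3b*-DKO. *Dnmt1*-KO libraries 3 and 4 were high and libraries 1 and 2 were within the range of *Dnmt3a/3b*-DKO (0.66, SE 0.53, adjusted p 0.746). Of the 6 tested miRNAs of *Gnas* and *Mest*, 1 was higher in *Dnmt1*-KO at the adjusted p, against 0.503% of all 597. At the study's thresholds 3 of the 6 were higher and 0 lower, against 5.36% and 5.19% of all. The median log2 fold change of the 6 was 0.88, against -0.04 over all 597.

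Outside imprinted genes, miR-30c-5p fell in *Dnmt1*-KO. It belongs to the miR-30 family and has 2 genes, 1 of them in an intron of *Nfyc* at chr4:120769534-120769622 and the other on chromosome 1, whose mature products are the same. The *Dnmt1*-KO libraries held 4014, 4065, 5483 and 4458 normalised CPM and the *Dnmt3a/3b*-DKO libraries 7908, 9186, 9423 and 8455. The groups did not overlap (-0.96, SE 0.15, edgeR adjusted p 0.00107), and the means of *Dnmt*-null and control embryos were 4342 ± 494.8 and 8233 ± 668.9 (SD, n = 4). The hairpin of miR-30e also lies in an intron of *Nfyc*, and miR-30e-5p has the seed of miR-30c-5p (sequences above). It was at 6186, 6839, 9140 and 9176 normalised CPM in *Dnmt1*-KO and at 6956, 8071, 7680 and 7812 in *Dnmt3a/3b*-DKO, with overlapping groups and an estimate of 0.04 (SE 0.19, adjusted p 0.969). The estimates of the family members miR-30a-5p and miR-30d-5p were -0.27 (SE 0.20) and 0.11 (SE 0.14), and of 12 tested miR-30 miRNAs only miR-30c-5p passed the adjusted p. At the study's thresholds 2 of the 12 were lower and 0 higher, against 5.19% and 5.36% of all tested miRNAs. In 2 all *Dnmt1*-KO libraries lay below those of *Dnmt3a/3b*-DKO, against 4.19% of all. The miR-30 group had a median of 0.05. Without *Dnmt1*-KO libraries 1 and 2, an alternative chosen after seeing the data, the value of miR-30c-5p was -0.82 (adjusted p 0.0492).

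**Figure D2:**
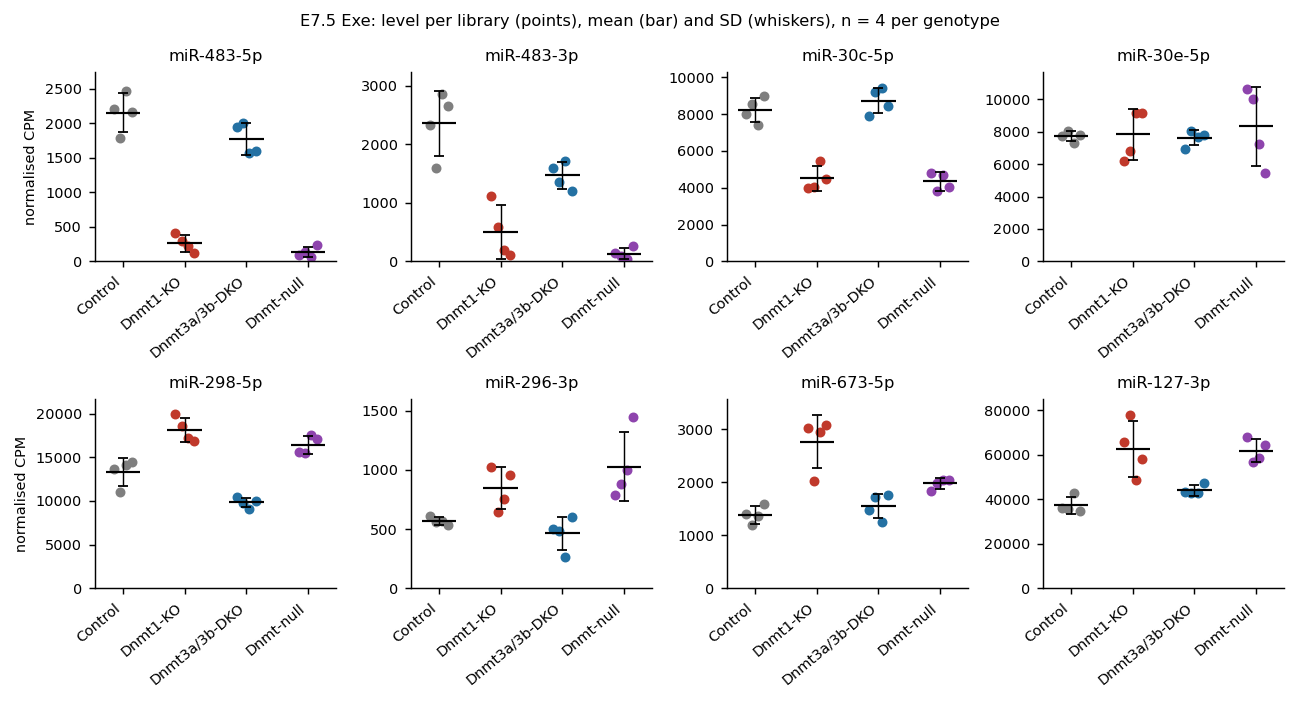
Normalised CPM of 8 miRNAs in each E7.5 Exe library is plotted by genotype, with points for libraries, bars for means and whiskers for the SD (n = 4). For miR-483-5p, miR-30c-5p and miR-298-5p the Dnmt1-KO and Dnmt3a/3b-DKO libraries lie apart, while those of miR-30e-5p overlap.

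The miRNAs of *Dlk1-Dio3* on chromosome 12 did not move as a block between the mutants in Exe. By annotation, 113 mature miRNAs of the table lie in the locus and 95 were tested. At the adjusted p, 1 of the 95 was higher in *Dnmt1*-KO, against 0.503% of all tested miRNAs, and 0 were lower, against 1.17%. An unadjusted p under 0.05 was found for 69 of all 597 miRNAs. At the study's thresholds 12 of the 95 were higher, against 5.36% of all tested miRNAs, and 0 were lower, against 5.19%. In 10 the libraries did not overlap with *Dnmt1*-KO above, against 3.35% of all, and in 0 with *Dnmt1*-KO below, against 4.19%. Of the 95 estimates, 51 were positive. Their median log2 fold change was 0.06, against -0.10 over the other 502 miRNAs. It lay between -0.07 and 0.20 with 1 library left out, so its sign depended on the library. Together they took 21.6% to 24.9% of the counts in *Dnmt1*-KO and 19.4% to 21.9% in *Dnmt3a/3b*-DKO, against 14.6% to 17.8% in controls.

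The estimates differed along the locus. The 14 tested miRNAs before *Rtl1*, next to and within *Meg3*, had a median of 0.44 with 10 of 14 positive, and the 12 that are antisense to *Rtl1* had a median of 0.32 with 9 of 12 positive. The 5 in *Rian* had a median of -0.01, and the 62 of the *Mirg* region had a median of -0.04 with 28 of 62 positive. These medians are descriptions of groups by position, without a test of the difference between them. Past the study's thresholds were 5 of 14, 2 of 12, 1 of 5 and 3 of 62, each higher in *Dnmt1*-KO, against 5.36% of all tested miRNAs. The count in the *Mirg* region was near that background.

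The miRNA that passed was miR-673-5p, at chr12:109571990-109572080 just after the end of *Meg3*. It was at 3022, 2024, 2947 and 3083 normalised CPM in *Dnmt1*-KO and at 1476, 1725, 1259 and 1752 in *Dnmt3a/3b*-DKO (0.83, SE 0.19, edgeR adjusted p 0.0292). *Dnmt1*-KO library 2 was the lowest of its group and still above the whole of the other. The call was lost in 8 of the 16 alternative fits, among them those without *Dnmt1*-KO libraries 1, 3 or 4 and without *Dnmt3a/3b*-DKO libraries 1 or 3, where the log2 fold change was 0.72 to 0.82 and the adjusted p 0.0567 to 0.150. Inside *Meg3*, miR-770-5p was at 516 to 807 normalised CPM across *Dnmt1*-KO libraries and at 438, 309, 199.1 and 348 in those of *Dnmt3a/3b*-DKO, without overlap (1.05, SE 0.30, adjusted p 0.0962). The most abundant miRNA of this stretch, miR-665-3p, was at 3460, 3174, 3554 and 3965 normalised CPM in *Dnmt1*-KO and at 2760, 2628, 2493 and 2334 in *Dnmt3a/3b*-DKO (0.47, SE 0.18, adjusted p 0.246), again with each *Dnmt1*-KO library above.

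Of the antisense *Rtl1* miRNAs, miR-127-3p is the most abundant and pairs fully with the *Rtl1* transcript, which is made from the other chromosome. It was at 65676, 78071, 48444 and 58133 normalised CPM in *Dnmt1*-KO and at 43057, 42709, 42656 and 47390 in *Dnmt3a/3b*-DKO, without overlap (0.51, SE 0.14, adjusted p 0.0832; DESeq2 gave 0.0465). Its passenger arm, miR-127-5p, ranged from 23.7 to 209 normalised CPM across *Dnmt1*-KO libraries and from 79.9 to 89.1 across the others, with overlap. The leading miRNAs of *Rian* and *Mirg* did not pass: the estimate of miR-370-3p was 0.33 (SE 0.20, adjusted p 0.566) and that of miR-409-3p 0.14 (SE 0.14, adjusted p 0.802). Of the other arms fixed for description, miR-409-5p, miR-541-5p, miR-541-3p, miR-369-5p, miR-369-3p, miR-540-3p and miR-540-5p had estimates between -0.38 and 0.34, with adjusted p from 0.724 to 0.969, and overlapping groups.

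At the distal end, the arms of miR-1247 near *Dio3*, outside the main cluster, were named after their values were seen. The levels of miR-1247-3p were 53.5, 90.7, 36.8 and 15.3 normalised CPM in *Dnmt1*-KO, while those of *Dnmt3a/3b*-DKO held 5.73, 0, 0 and 5.76 (4.02, SE 1.35, adjusted p 0.176). The control mean was 49.9, above every *Dnmt3a/3b*-DKO library and above the *Dnmt1*-KO libraries at 36.8 and 15.3.

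In Epi of the same stage, the *Dlk1-Dio3* miRNAs separated the mutants more widely. In a fit over 30 E7.5 libraries of both tissues, 102 were tested, and their median log2 fold change between *Dnmt1*-KO and *Dnmt3a/3b*-DKO was -0.09 in Exe, with 46 of 102 positive, and 0.61 in Epi, with 95 of 102 positive. The other 626 miRNAs had medians of -0.24 and -0.17. Scaling set the level of the tissue difference: its median over all miRNAs was -0.11 here and 0.09 with RLE factors, while that of the *Dlk1-Dio3* miRNAs was -0.63 here. The difference between tissues was tested for each miRNA, and 2 of 728 passed (0.275%), both of them in *Dlk1-Dio3*. In Epi, miR-541-5p was at 16037, 14777, 16782 and 15225 normalised CPM in *Dnmt1*-KO and at 7195, 6569, 6384 and 6397 in *Dnmt3a/3b*-DKO. In Exe, scaled in the same fit, it was at 8084, 7728, 5984 and 7037 and at 8503, 6992, 5832 and 7772. The mutants were thus apart in Epi and overlapped in Exe, where both were near the level of *Dnmt3a/3b*-DKO Epi (tissue difference -1.26, SE 0.22, edgeR adjusted p 0.00268).

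The other was miR-540-3p, which lies before *Rtl1*. In Epi it was at 1265, 992, 1114 and 868 normalised CPM in *Dnmt1*-KO and at 232, 149, 167 and 172 in *Dnmt3a/3b*-DKO. In Exe all 8 libraries held 130 to 339, with full overlap (tissue difference -2.39, SE 0.44, edgeR adjusted p 0.00268). Without *Dnmt1*-KO Exe libraries 1 and 2 the difference was -2.01 and did not pass (adjusted p 0.0520). The differences of miR-298-5p and miR-483-5p between the mutants, in contrast, were present in Epi as well, at 0.68 and -3.77, and their tissue differences of 0.06 (SE 0.15, adjusted p 0.983) and 0.85 (SE 0.82, adjusted p 0.797) did not pass. That of miR-30c-5p was -0.41 in Epi and -1.08 in Exe, and the tissue difference did not pass (adjusted p 0.0734).

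**Figure D3:**
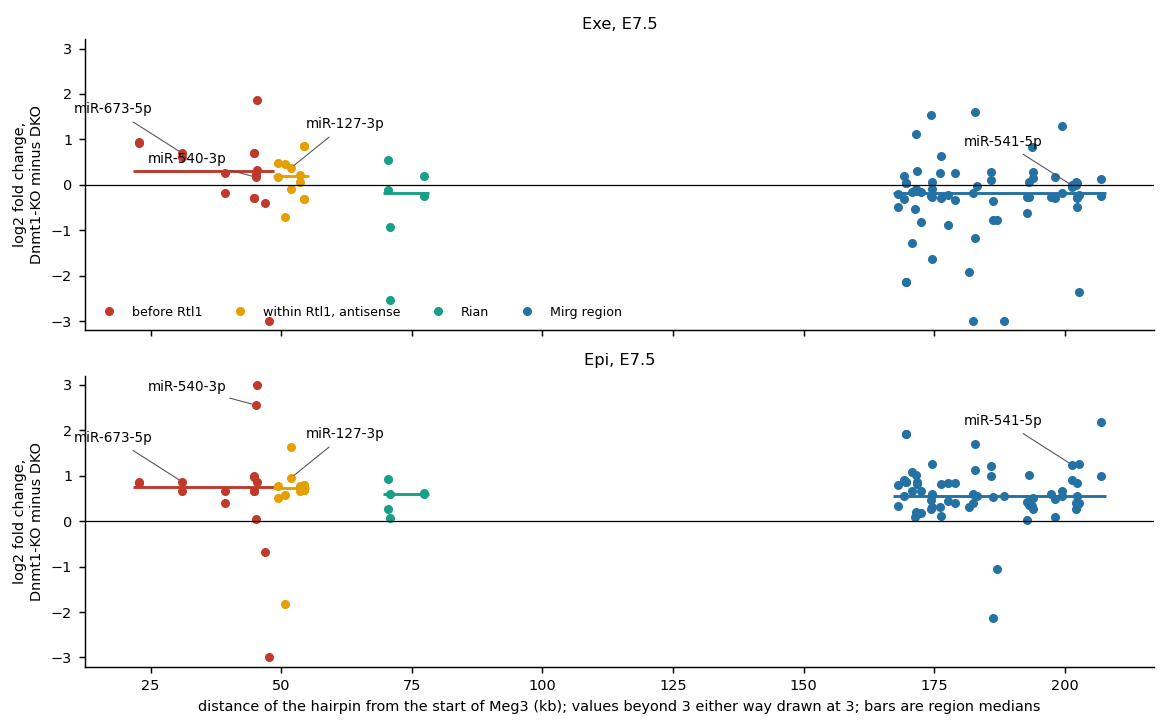
The log2 fold change (Dnmt1-KO minus Dnmt3a/3b-DKO) of 100 Dlk1-Dio3 miRNAs is plotted against the distance of the hairpin from the start of Meg3 in kb, in Exe (upper) and Epi (lower) at E7.5, with bars for region medians. Values are those of the 30-library fit of both tissues, so the Exe medians differ from those of the 16-library fit. In Exe the medians are 0.30 before Rtl1, 0.18 within it, -0.18 in Rian and -0.19 in the Mirg region. In Epi they are 0.75, 0.73, 0.59 and 0.56 in the same order.

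**Figure D4:**
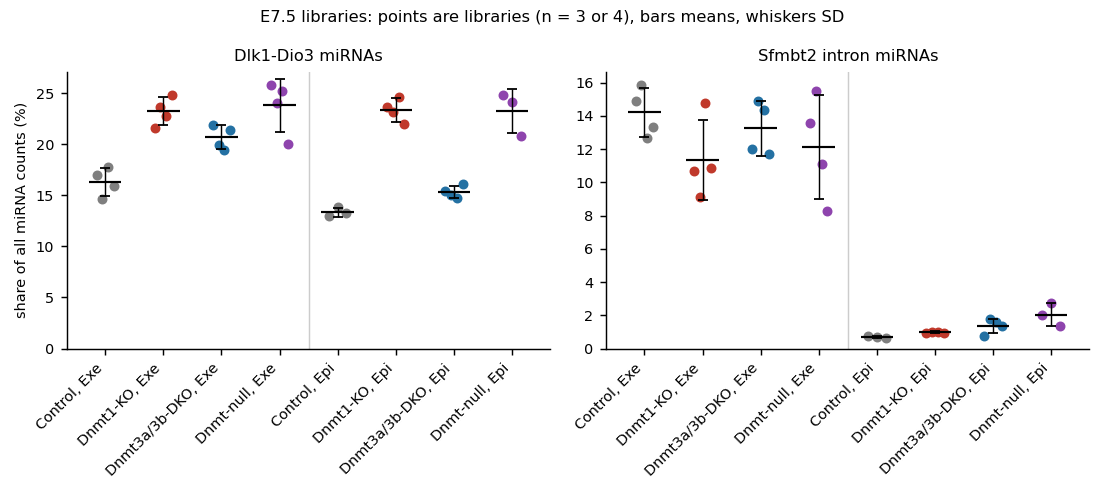
Shares of all miRNA counts (%) taken by the Dlk1-Dio3 miRNAs (left) and the Sfmbt2 miRNAs (right) are plotted for each E7.5 library by genotype and tissue, with bars for means and whiskers for the SD. The Dlk1-Dio3 share of Dnmt3a/3b-DKO is 19.4% to 21.9% in Exe and 14.7% to 16.2% in Epi, and that of Dnmt1-KO is 21.6% to 24.9% and 21.9% to 24.7%.

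miR-101a-3p was called lower in *Dnmt1*-KO at a low level. Its hairpin at chr4:101346945-101347027 overlaps an exon of the lincRNA gene *E130102H24Rik*. All 4 *Dnmt1*-KO libraries held 0 counts and the *Dnmt3a/3b*-DKO libraries 55, 42, 30 and 38, or 39.4, 26.2, 21.8 and 15.7 normalised CPM. It was at least 7.55-fold lower in *Dnmt1*-KO, taking a floor of 3 counts in each of its libraries (edgeR adjusted p 0.0170). The p missed the threshold in 2 of the 16 alternative fits, one of them that of the 8 libraries alone (0.149). In all, 18 tested miRNAs had at most 3 counts in every *Dnmt1*-KO library, and 3 had in every *Dnmt3a/3b*-DKO library. *Dnmt1*-KO libraries 1 and 2 held the fewest detected miRNAs, while libraries 3 and 4 lay within or near the range of *Dnmt3a/3b*-DKO, and the part of this in the 0 counts was not tested. Such floors cover counting error only, since PCR copies were not collapsed.

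miR-5099, an entry outside *Dlk1-Dio3* on chromosome 12 for which no mature sequence was found, was at 104834, 84488, 29966 and 29318 normalised CPM in *Dnmt1*-KO and at 13935, 16042, 20179 and 16972 in *Dnmt3a/3b*-DKO. The groups did not overlap, and *Dnmt1*-KO libraries 1 and 2 were far above libraries 3 and 4 (1.89, SE 0.39, edgeR adjusted p 0.0157). Without libraries 1 and 2 the log2 fold change was 0.81 and did not pass (adjusted p 0.461), and without either alone it was 1.51 and 1.66 (adjusted p 0.0634 and 0.0712). Controls held 39842 ± 2769 (SD, n = 4), above *Dnmt3a/3b*-DKO.

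The size of the difference of miR-486, an erythroid miRNA, rested on a single library. miR-486a-5p was at 150, 99.9, 30.8 and 117 normalised CPM in *Dnmt1*-KO and at 309, 3919, 312 and 162 in *Dnmt3a/3b*-DKO (-3.56, SE 0.88, edgeR adjusted p 0.0447). *Dnmt3a/3b*-DKO library 2 was far above the others, and without it the value was -1.36 (adjusted p 0.455). The call was also lost without any 1 of the *Dnmt1*-KO libraries (adjusted p 0.0772 to 0.147). Other erythroid miRNAs were high in the same library: miR-451a was at 1540 normalised CPM there and at 116 to 186 in the other 3, and miR-144-3p at 638 and at 25.4 to 39.1. The *Dnmt1*-KO libraries held 0 to 125.7 of the former and 0 to 55.7 of the latter. In bulk tissue, fewer cells of a type and less RNA in each cell cannot be told apart. Of 9 tested miRNAs of blood and endothelium, 0 passed the adjusted p. At the study's thresholds 1 of the 9 (miR-451a) was lower, against 5.19% of all tested miRNAs. The median of the 9 was -0.42. The summed share of this list was 0.277% to 0.719% in *Dnmt1*-KO and 0.634% to 0.881% in *Dnmt3a/3b*-DKO.

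miRNAs of the *Hox* clusters mark posterior and extraembryonic mesoderm. Of 5 tested, 1 was lower and 0 higher at the study's thresholds, against 5.19% and 5.36% of all tested miRNAs. The median of the 5 *Hox* miRNAs was -1.25, with 0 past the adjusted p. The leading one, miR-10b-5p, was at 631, 465.7, 1651 and 1818 normalised CPM in *Dnmt1*-KO and at 1512, 2094, 2718 and 5467 in *Dnmt3a/3b*-DKO (-1.37, SE 0.66, adjusted p 0.441), and it passed only in the fit without a filter on low counts (adjusted p 5.66e-05). *Dnmt1*-KO libraries 1 and 2 were the lowest and *Dnmt3a/3b*-DKO library 4 the highest, and these miRNAs spread widely among controls too (3039 ± 2131, SD, n = 4).

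Some of these differences between the mutants also depended on the stage. In a fit over 32 Exe libraries of E6.5 and E7.5, the difference between the mutants itself differed between stages for 6 of 540 miRNAs (1.11%): 4 entries of miR-486, miR-5099 and miR-10a-5p, and 0 of 89 in *Dlk1-Dio3*. At E6.5, miR-10a-5p was in the *Dnmt1*-KO libraries at 0, 56.2, 755 and 446 normalised CPM, and at 17.1, 0, 17.8 and 24.3 in those of *Dnmt3a/3b*-DKO. At E7.5 it was at 235, 156, 514 and 771 and at 727, 604, 717 and 1890 (stage difference -5.51, SE 1.36, edgeR adjusted p 0.0239). The call of miR-10a-5p was lost without *Dnmt1*-KO library 1 (-5.35, adjusted p 0.0771), library 2 (-5.31, adjusted p 0.0706) or both (-4.89, adjusted p 0.290), and without *Dnmt3a/3b*-DKO library 2 (-5.68, adjusted p 0.0688) or library 4 (-4.99, adjusted p 0.0900). The stage difference of miR-5099 was 2.52 (SE 0.60, edgeR adjusted p 0.0205), and its call too was lost without *Dnmt1*-KO library 1 (2.09, adjusted p 0.0780), library 2 (2.24, adjusted p 0.0706) or both (1.45, adjusted p 0.440). Libraries 3 and 4 of E6.5 *Dnmt1*-KO were high in both miR-10a-5p and miR-486a-5p. Leaving out *Dnmt3a/3b*-DKO library 2 of E7.5 left 0 calls in this comparison in edgeR's test, with 45 miRNAs at an unadjusted p under 0.05. DESeq2, run with all libraries, gave 6 calls. Apart from miR-486a and miR-5099, miR-10a-5p is named here after its values were seen.

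Of the 30 miRNA groups described, 4 held a miRNA past the adjusted p (*Igf2-H19*, *Gnas* and *Mest*, miR-30, and *Dlk1-Dio3* next to *Meg3*), and 14 held none past the study's thresholds. By annotation the *Sfmbt2* gene held 61 tested miRNAs with a median of -0.01. At the study's thresholds 2 of the 61 were higher and 0 lower, against 5.36% and 5.19% of all tested miRNAs. The most abundant miRNA of the gene, miR-466a-3p, had an estimate of -0.18 (SE 0.17, adjusted p 0.804). The pluripotency clusters gave medians of -0.10 (miR-290 cluster, 18 tested) and -0.05 (miR-302 cluster, 9 tested), and 0 passed the adjusted p. At the study's thresholds 1 of 18 in the miR-290 cluster was lower, against 5.19% of all tested miRNAs, and 0 of 9 in the miR-302 cluster. In these clusters miR-295-3p had a value of -0.11 (SE 0.13) and miR-302b-3p of -0.31 (SE 0.26).

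The miR-17~92 cluster and its paralogues, which promote proliferation, had 22 tested members with a median of -0.33, and 0 passed the adjusted p. Past the study's thresholds 4 of the 22 were lower and 0 higher, against 5.19% and 5.36% of all tested miRNAs. Of these 4, 3 share a seed: miR-20a-5p (-1.32, SE 0.46, adjusted p 0.201), miR-17-5p (-0.80, SE 0.29, adjusted p 0.230) and miR-93-5p (-0.77, SE 0.34, adjusted p 0.362). miR-20a-5p was at 60.5, 78.4, 129 and 260 normalised CPM in *Dnmt1*-KO and at 325, 285, 271 and 441 in *Dnmt3a/3b*-DKO. The libraries did not overlap, and *Dnmt1*-KO libraries 1 and 2 were again the lowest. The other 3 tested miRNAs with this seed, miR-106a-5p, miR-106b-5p and miR-20b-5p, had estimates of -1.28, -0.81 and -0.75 with SE of 1.03 to 1.13. Of the 22 estimates 15 were negative, against 318 of all 597. The most abundant member, miR-92a-3p, has another seed and had a value of 0.31 (SE 0.24, adjusted p 0.739).

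The let-7 group, which accumulates as cells differentiate, had 8 of 9 estimates below 0, against 318 of all 597. Its median was -0.91, with 0 past the adjusted p. At the study's thresholds 1 of the 9 was lower (let-7c-5p, -1.76, SE 0.70, adjusted p 0.288), against 5.19% of all tested miRNAs. let-7a-5p was at 653, 401, 191 and 298.4 normalised CPM in *Dnmt1*-KO and at 448, 731, 375.7 and 483.4 in *Dnmt3a/3b*-DKO, with overlap. let-7b-5p was at 46.6, 46.1, 86.6 and 35.8 and at 25.1, 161, 6.54 and 12.4, where the high value is again that of *Dnmt3a/3b*-DKO library 2 (0.07, SE 1.001, adjusted p 0.975). Groups of other cell types had medians of -0.48 (mesenchymal, 7 tested), -0.53 (endoderm, 6 tested) and 1.18 (neural, 5 tested), each with 0 past either threshold. The leading neural miRNA, miR-124-3p, was at 0 to 111 normalised CPM, and the mesenchymal miR-143-3p at 311 to 842. Of 78 tested miRNAs on the X chromosome, 0 were higher and 2 lower at the study's thresholds, against 5.36% and 5.19% of all tested miRNAs. The median of the 78 was -0.13.

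The most abundant miRNAs of the remaining groups had overlapping libraries and did not pass the adjusted p in the 16-library fit. In epithelial groups, miR-200b-3p had an estimate of -0.46 (SE 0.24) and miR-182-5p of -0.17 (SE 0.15). The endodermal miR-192-5p was at -0.43 (SE 0.30), the leukocyte miRNA miR-142a-5p at -1.25 (SE 0.76, passing only without the filter, adjusted p 0.0043) and the muscle miRNA miR-133a-3p at -0.25 (SE 1.09). For miR-351-5p, miR-421-3p, miR-16-5p, miR-34b-3p, miR-148a-3p, miR-27b-3p, miR-181d-5p, miR-125a-5p and miR-130b-5p the estimates ran from -0.73 to 0.33, with SE from 0.20 to 0.62. The direction of several of these small estimates turned with the libraries included, as given with the alternative fits.

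**Figure D5:**
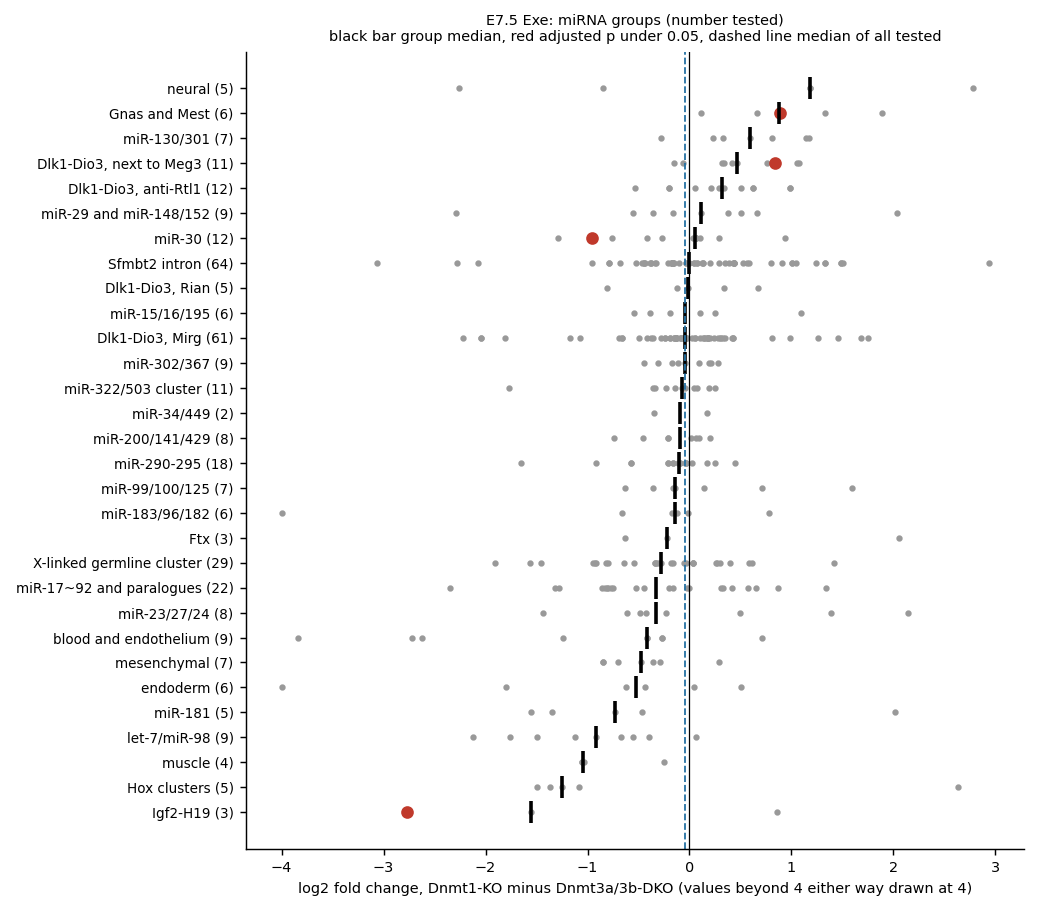
The log2 fold change (Dnmt1-KO minus Dnmt3a/3b-DKO) of each tested member is plotted for 30 miRNA groups, ordered by the group median (black bar), with the number tested in brackets and the median of all 597 as a dashed line. Red points passed the adjusted p and lie in 4 groups; values beyond 4 either way are drawn at 4.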

How the data were processed

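The deposited table holds read counts per mature miRNA, not normalised. The authors made it from CAS-seq libraries (Cas9-assisted small RNA sequencing from 100 pg of RNA, with PCR and no molecular identifiers described): reads were trimmed and mapped to GRCm38 and counted on miRBase entries with tolerance at the 3′ end. The submitters' processing notes name fastp 0.20.1, Bowtie 1.2.1.1 and DESeq2 1.30.1. The other deposited tables were not used here.

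Counts were analysed in R 4.3.3 with edgeR 4.0.16 (filterByExpr with a count minimum of 10, TMM, glmQLFit, glmQLFTest) over all 16 E7.5 Exe libraries, so that the 4 genotypes share one estimate of spread. Differences between tissues (30 libraries) and stages (32 libraries) were interaction contrasts. Normalised CPM is the count scaled by library size and TMM factor. A shallower library gives a less certain value, and shares in percent are of all counts of a library. Groups follow the sample titles, and no library was a copy of another. Positions are RefSeq and GENCODE vM21 gene coordinates, and 1482 of 1504 miRNAs matched a gene. The fits were tested on simulated data.

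Named miRNAs are the called ones whose libraries do not overlap (up to 8 in each direction), the most abundant member of each of 30 groups, every called *Dlk1-Dio3* miRNA, the miRNAs the study names (let-7b-5p, miR-296-3p and arms of 5 *Dlk1-Dio3* hairpins), and up to 3 called in each interaction; others are given as members of a described group or said to be chosen later. The comparison, the miRNA groups and the named miRNAs were chosen with earlier results of these data known. Alternatives were DESeq2 1.42.0, RLE scaling, TMM factors without *Dlk1-Dio3*, other filters, the 8 libraries alone, a replicate term, each library left out and, added after seeing the data, *Dnmt1*-KO libraries 1 and 2 left out.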

Additional observations from a re-analysis of the deposited data

Results flagged for a closer look

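In 8 of 98 groups of 4 libraries looked at, over 49 named miRNAs, 1 library stood apart from the other 3 by Dixon's criterion, which chance alone meets in about 1 of 20 groups. Of these, 7 were in *Dnmt3a/3b*-DKO. Library 2 of *Dnmt3a/3b*-DKO was apart in 5: miR-486a-5p and miR-486b-5p at 3919 normalised CPM each, miR-486a-3p and miR-486b-3p at 3918 each, which count nearly the same reads, and let-7b-5p at 161. Library 4 of *Dnmt3a/3b*-DKO was apart for miR-127-3p at 47390 and for miR-130b-5p at 1853. Library 2 of *Dnmt1*-KO was apart for miR-673-5p at 2024, the low value of that group.

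The difference between the mutants differed by an interaction test from that in another tissue or stage for 8 entries. Against E7.5 Epi these were miR-540-3p (-2.39 on the log2 scale) and miR-541-5p (-1.26). Against E6.5 Exe these were miR-10a-5p (-5.51), miR-5099 (2.52), miR-486a-3p and miR-486b-3p (-6.39 each) and miR-486a-5p and miR-486b-5p (-6.45 each). The miR-486 values fell to -4.26 and -4.19 without *Dnmt3a/3b*-DKO library 2 and did not pass (adjusted p 0.0688 in edgeR). Neither miR-10a-5p nor miR-5099 passed without *Dnmt1*-KO library 1, library 2 or both, where miR-5099 fell to 1.45 (adjusted p 0.440) and miR-10a-5p was at -4.89 (adjusted p 0.290).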

How the results depend on the processing

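Counts of calls between the mutants (3 higher and 7 lower) became 13 and 14 with DESeq2, 7 and 12 without a filter, 2 and 2 with the 8 libraries alone, 4 and 4 without *Dnmt1*-KO libraries 1 and 2 (chosen after seeing the data), and 32 and 31 at the study's thresholds. They ranged from 2 to 3 and from 3 to 7 with 1 library left out. *Dlk1-Dio3* calls (1 higher, 0 lower) became 5 with DESeq2, 0 with the 8 libraries alone, 12 at the study's thresholds, and 0 to 1 with 1 library left out. Tissue calls (2) became 20 with DESeq2, 1 without both libraries, and 2 to 8 with 1 left out, and stage calls (6) ranged from 0 to 8. With a replicate block the counts were 1 higher and 2 lower, and 0 in *Dlk1-Dio3*, miR-101a-3p did not pass (adjusted p 0.0857), and neither did the stage differences of miR-5099 and miR-10a-5p (0.0539 each). Libraries share only a number: correlations of same-numbered deviations were -0.02 to 0.08, and 3 of 8 libraries correlated best with their own number. RLE scaling, TMM factors without *Dlk1-Dio3* and a mean of at least 10 counts kept all 10 calls.

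Of 896 recomputed values of named miRNAs, 26 changed sign, all of miRNAs that had not passed. With the 8 libraries alone these were miR-127-5p (-0.0052) and miR-30e-5p (-0.00997), and with the replicate block miR-127-5p (-0.27) and miR-540-5p (-0.0407). Without both *Dnmt1*-KO libraries these were miR-125a-5p (-0.39), miR-127-5p (-1.05), miR-130b-5p (-0.0114), miR-133a-3p (0.42), miR-148a-3p (0.0591), miR-302b-3p (0.0343), miR-34b-3p (0.14), miR-369-3p (0.38) and miR-541-5p (-0.0671). With 1 library left out the ranges were let-7b-5p (-0.32 to 1.93), miR-125a-5p (-0.0891 to 0.31), miR-127-5p (-0.88 to 0.35), miR-133a-3p (-0.74 to 0.0185), miR-30e-5p (-0.0799 to 0.13), miR-369-3p (-0.98 to 0.00988), miR-540-5p (-0.15 to 0.79) and miR-541-3p (-0.0910 to 0.25). The cause was not tested. *Dnmt1*-KO libraries 1 and 2 held the fewest detected miRNAs, 450 and 459 at totals of 978810 and 675619 counts. *Dnmt1*-KO library 3 held 569 at a total of 804147.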

Other observations

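Products of the miR-129 genes, chosen after their values were seen, had counts in *Dnmt1*-KO and none in *Dnmt3a/3b*-DKO. miR-129-2-3p had 0, 15, 29 and 94 counts in *Dnmt1*-KO libraries 1 to 4, miR-129b-5p had 0, 15, 68 and 97, and each *Dnmt3a/3b*-DKO and control library had 0. The means in *Dnmt*-null embryos were 69.9 ± 50.2 and 90.5 ± 71.2 normalised CPM (SD, n = 4). Taking a floor of 3 counts in each *Dnmt3a/3b*-DKO library, the means in *Dnmt1*-KO were at least 16.1-fold and 22.6-fold higher, but neither passed (edgeR adjusted p 0.0868 and 0.0676). Their hairpins lie on opposite strands of the same stretch of chromosome 2 (chr2:94241364-94241453 and chr2:94241378-94241442), inside the lincRNA gene *Mir670hg*. Their counts differ in *Dnmt1*-KO libraries 3 and 4, so the entries do not count wholly the same reads. How many reads they share was not tested. miR-129-1-3p, from chromosome 6, had the same pattern in 2 libraries, at 0, 0, 14.2 and 49.1 normalised CPM in *Dnmt1*-KO libraries, with 0 in each *Dnmt3a/3b*-DKO library.

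The X-linked germline cluster, which is best known from testis, stood above controls in both mutants. Its most abundant miRNA, miR-470-5p, was at 1968 ± 708 normalised CPM (SD, n = 4) in controls, at 5319 to 7976 in *Dnmt1*-KO libraries and at 4674 to 6478 in those of *Dnmt3a/3b*-DKO, and the mutants did not separate (0.27, SE 0.24, edgeR adjusted p 0.793). Of 29 tested members, 0 were higher and 1 was lower in *Dnmt1*-KO at the study's thresholds, against 5.36% and 5.19% of all tested miRNAs. The lower one was miR-743b-3p (-0.82, SE 0.35, adjusted p 0.335).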
